A study of Mus musculus with 4 samples.

Results

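The 7 genes of the endogenous opioid system described here are the peptide precursor genes Penk, Pdyn and Pnoc and the receptor genes Oprm1, Oprd1, Oprk1 and Oprl1. They were chosen by gene symbol, 7 of the 32287 features in a single-nucleus RNA count matrix of mouse medial prefrontal cortex. All samples came from C57BL/6J mice 9 weeks old, with 2 samples taken 24 h after DOI, a psychedelic agonist of serotonin 2A and 2C receptors, and 2 taken 24 h after saline. Each treatment had 1 female and 1 male sample. In both treatments the tissue carried scFLARE2, a light- and calcium-gated transcription tool, and its reporter TRE-mCherry-p2a-bReaChES. How many animals each sample held, and which promoter drove the tool, is not given in the sources used here.

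Opioid peptides are cut from larger precursors and act on G-protein-coupled receptors that inhibit neurons and transmitter release. Enkephalins, from Penk, bind mainly the delta and mu receptors (Oprd1, Oprm1), dynorphins, from Pdyn, prefer the kappa receptor (Oprk1), and nociceptin, from Pnoc, binds the nociceptin receptor (Oprl1). In cortex, opioid peptides are made largely by interneurons, while striatal projection neurons are a classical source of enkephalin and dynorphin.

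The 3 precursors differ in how many opioid peptides they hold, and this can be read from their coding sequence (GENCODE M21, build mm10). Penk (chr4:4133531-4138819, minus strand, 807 coding bases) held 7 in-frame copies of the enkephalin core, all within chr4:4133842-4134354. Pdyn (chr2:129686565-129699844, minus strand, 747 coding bases) held 3 copies within chr2:129688067-129688258. Pnoc (chr14:65400673-65425472, minus strand, 564 coding bases) held 1 copy of the nociceptin core at chr14:65404872-65404898. The windows below show what each gene measured here encodes. They run 5′ to 3′ on the coding strand, with capitals for the core codons and the codon that follows them and lower case for the flanking codons.
Penk copy 1: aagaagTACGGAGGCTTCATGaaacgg
Penk copy 2: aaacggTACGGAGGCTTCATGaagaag
Penk copy 3: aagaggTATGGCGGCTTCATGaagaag
Penk copy 4: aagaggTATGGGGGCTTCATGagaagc
Penk copy 5: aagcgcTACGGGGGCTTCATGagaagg
Penk copy 6: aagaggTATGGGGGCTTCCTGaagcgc
Penk copy 7: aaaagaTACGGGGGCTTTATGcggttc
Pdyn copy 1: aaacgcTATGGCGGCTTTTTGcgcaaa
Pdyn copy 2: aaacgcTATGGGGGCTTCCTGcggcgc
Pdyn copy 3: aagcgcTATGGTGGTTTCCTGcggcgt
Pnoc copy 1: aaaaggTTTGGGGGCTTCACCggggcc

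In Penk the fifth codon was ATG, that of the Met-enkephalin sequence, in 6 of the 7 copies, and in none of the 3 Pdyn copies. A pair of basic codons, the sites where precursor convertases cut, stood before all 11 cores. Such a pair also stood after 5 of 7 Penk cores, 3 of 3 Pdyn cores and 0 of 1 Pnoc cores. The Penk cores without a pair after them, copies 4 and 7, both have ATG as the fifth codon. The receptor genes lie at chr10:6758506-7038198 (Oprm1, plus strand), chr4:132110726-132144486 (Oprd1, minus strand), chr1:5588466-5606131 (Oprk1, plus strand) and chr2:181715016-181720985 (Oprl1, plus strand). Their coding sequences were 66.7% to 71.6% identical over aligned bases in the 6 pairs. On the opposite strand, Oprm1 overlaps Ipcef1 and Gm10945, and Penk overlaps A830012C17Rik. The counting's strand setting is not given in the sources used here.

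The matrix held 157575088 UMIs (tags that count single RNA molecules) in 22402 barcodes. Barcode endings separate 4 libraries of 5721, 5278, 3076 and 8327 barcodes, with between 19968985 and 57947155 UMIs each, called libraries 1 to 4 here. Which ending belongs to which sample is not given in the sources used here, so the matrix counts as 1 sample, no DOI and saline values were compared, and no p-value was made. Of 22352 distinct barcode sequences, 50 occurred in more than 1 library. After filtering, 12836 nuclei remained with a median of 8844.5 UMIs. They formed 18 classes named for their resemblance to cell classes and 3 unnamed clusters. Excitatory nuclei numbered 8234, inhibitory nuclei 1323 and named non-neuronal nuclei 2480. Although the label names prefrontal cortex, 329 nuclei carried markers of medium spiny neurons of the striatum (MSN-like) and 200 those of neuroblasts. The MSN-like nuclei were 220, 76, 32 and 1 in libraries 1 to 4, so striatal levels rest almost wholly on libraries 1 to 3, while the calls below count the single nucleus of library 4 as a library. Levels are summed UMIs scaled to counts per 1e6 UMIs of the same nuclei (CPM), with exact Poisson 95% intervals that cover counting error only. Levels of different genes are not compared, since capture differs between genes.

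**Figure D1:**
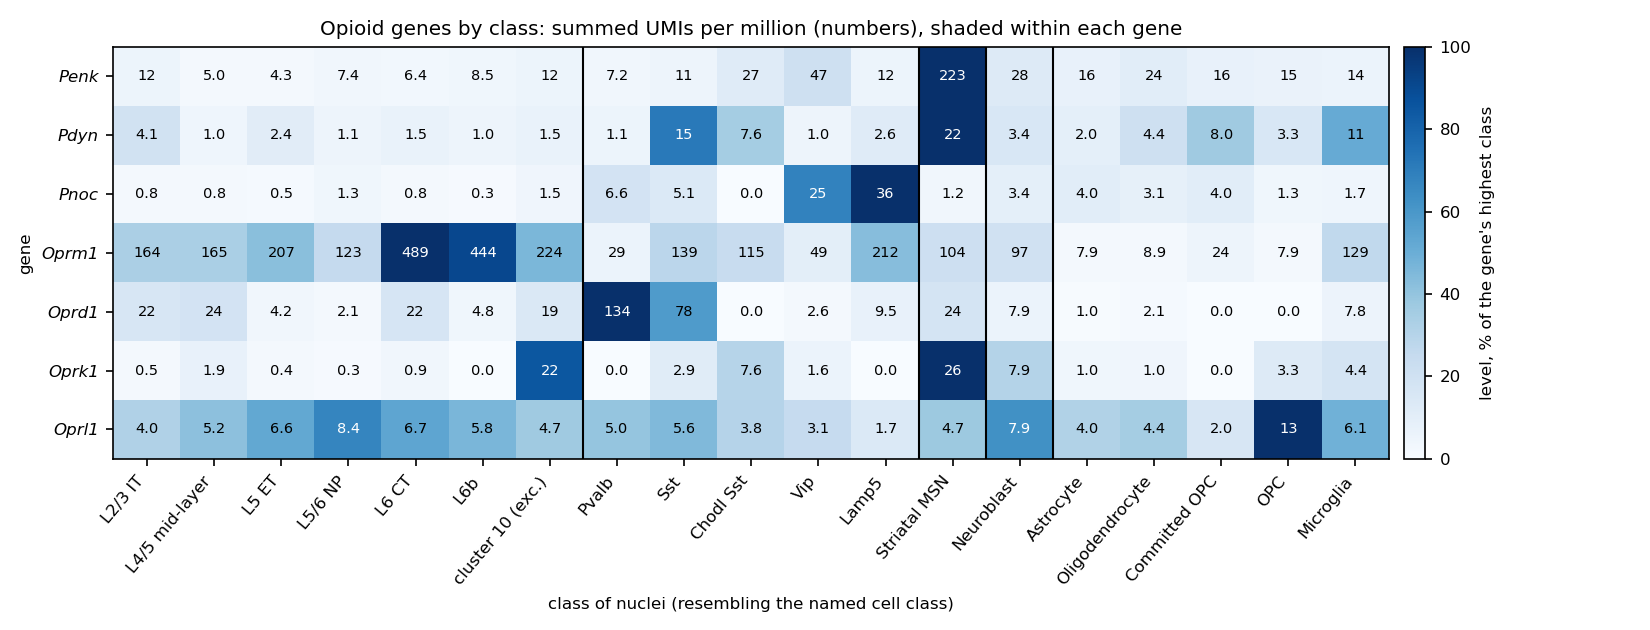
Each cell gives the level of 1 gene (row) in 1 class of nuclei (column) in CPM, shaded from 0 to 100% of that gene's highest class shown. Vertical lines part excitatory, inhibitory, striatal, neuroblast-like and non-neuronal classes: Oprm1 was highest in L6 CT-like nuclei (489 CPM), Oprd1 in Pvalb-like nuclei (134 CPM) and Penk in MSN-like nuclei (223 CPM).

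Penk, the enkephalin precursor, was concentrated in few nuclei. Of its 1724 UMIs, 32.8% lay in the 329 MSN-like nuclei, at 223 CPM (interval 205 to 242), with a UMI in 41.9% of them, or 18.3% after thinning each nucleus to 1500 UMIs. Libraries 1, 2 and 3 gave 199, 225 and 313 CPM there, and the single nucleus of library 4 had no Penk UMI. Among cortical classes, Vip-like interneurons ranked first at 46.6 CPM, with 61.8, 34.4, 36.5 and 51.8 CPM in libraries 1 to 4. Next among cortical neurons were the 28 Chodl Sst-like nuclei at 26.8 CPM, from 7 UMIs, and no other cortical neuron class was above the 12.1 CPM of Lamp5-like nuclei.

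Penk was also counted in glia. Oligodendrocyte-like nuclei had 23.9 CPM, with a UMI in 6.91% of nuclei at a median of 2693 UMIs, and microglia-like nuclei had 13.9 CPM, with a UMI in 4.60% at a median of 2404 UMIs. Over all non-neuronal nuclei the level was 37.8, 18.1, 8.66 and 6.16 CPM in libraries 1 to 4. The share of MSN-like nuclei in the same libraries was 5.31%, 2.20%, 2.04% and 0.0272%. In excitatory nuclei Penk had 12.2, 7.59, 5.90 and 4.86 CPM. Of other striatal genes, Pde10a had 846, 895, 816 and 714 CPM in non-neuronal nuclei of libraries 1 to 4. Rgs9 had 22.5, 15.6, 12.1 and 15.6 CPM there, and 39.0, 36.3, 31.4 and 32.1 CPM in excitatory nuclei. The part of free RNA from MSN-like nuclei in the low Penk levels was not tested. A Penk UMI was found in 7.60% of excitatory nuclei at a median of 10877 UMIs, or 1.51% after thinning, against 3.67% in oligodendrocyte-like nuclei, so the excitatory share as a whole was not above that of oligodendrocyte-like nuclei. Single excitatory nuclei had more: 7 had at least 5 Penk UMIs, 4 of them L2/3 IT-like and 3 in the unnamed cluster 10, while no non-neuronal nucleus had more than 2.

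Pdyn, the dynorphin precursor, had 383 UMIs. It was highest in MSN-like nuclei at 21.6 CPM (interval 16.3 to 28.2), with 16.9, 33.9 and 20.03 CPM in libraries 1 to 3. Sst-like interneurons followed at 15.5 CPM (interval 11.8 to 20.04), with 14.7, 8.07, 10.8 and 23.2 CPM in libraries 1 to 4, so the library ranges of these classes overlapped. A Pdyn UMI was found in 9.11% of Sst-like nuclei, against 1.03% of oligodendrocyte-like and 3.13% of microglia-like nuclei. After thinning, these shares were 2.53%, 0.648% and 1.84%. The microglia-like level, 11.1 CPM, rests on 20 UMIs.

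Pnoc, the nociceptin precursor, was highest in Lamp5-like and Vip-like interneurons. Its 262 UMIs gave 36.4 CPM in Lamp5-like nuclei (interval 26.2 to 49.2) and 24.9 CPM in Vip-like nuclei (interval 18.3 to 33.0). Lamp5-like values were 31.7, 30.5, 24.5 and 55.2 CPM in libraries 1 to 4, and Vip-like values were 30.9, 30.9, 12.2 and 19.9 CPM. These ranges overlapped each other, but the Vip-like range did not reach the next class, Pvalb-like nuclei, at 3.51 to 8.45 CPM. A Pnoc UMI occurred in 26.4% of Lamp5-like and 15.6% of Vip-like nuclei, against 0.929% of oligodendrocyte-like and 0.552% of microglia-like nuclei. After thinning, the same classes had 4.65%, 2.61%, 0.648% and 0.615%. In excitatory nuclei the level was 0.854 CPM.

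**Figure D2:**
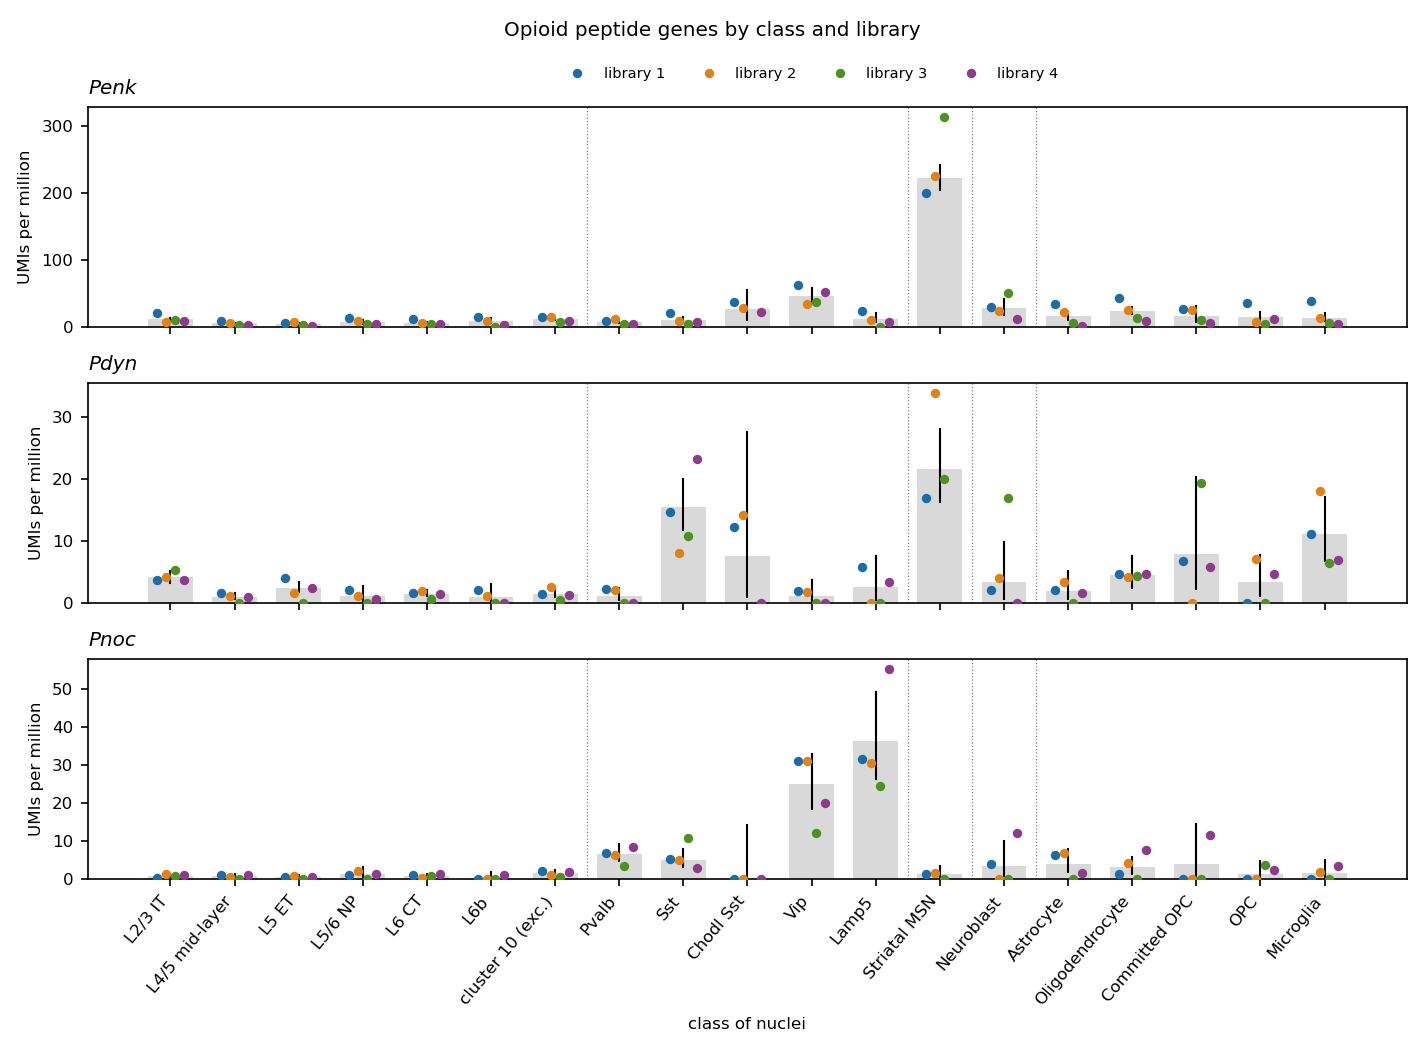
Grey bars give the pooled level of each peptide gene in CPM by class, black lines its 95% counting interval, and coloured points the 4 libraries where a library has at least 5 nuclei of the class. Penk peaks in MSN-like nuclei at 223 CPM and Pnoc in Lamp5-like nuclei at 36.4 CPM, and Pdyn has peaks in MSN-like (21.6 CPM) and Sst-like (15.5 CPM) nuclei.

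Oprm1, the mu receptor, was highest in the L6 CT-like and L6b-like excitatory classes. Of its 28496 UMIs, 43.9% lay in L6 CT-like nuclei (corticothalamic neurons of layer 6), where the level was 489 CPM and 92.8% of nuclei had a UMI. Libraries 1 to 4 gave 461, 544, 706 and 406 CPM there. L6b-like nuclei followed at 444 CPM, with 434, 475, 640 and 377 CPM, a range that overlaps that of L6 CT-like nuclei. All other excitatory classes, the unnamed cluster 10 included, lay between 123 and 224 CPM, and their highest library value, 269 CPM, was below the lowest of either layer 6 class. Among interneurons, Lamp5-like nuclei had 212 CPM, Sst-like 139 CPM, Vip-like 49.2 CPM and Pvalb-like 29.1 CPM. Oligodendrocyte-like nuclei, which served as background, had 8.89 CPM and a UMI in 2.27% of nuclei. After thinning, a UMI remained in 47.8% of L6 CT-like and 1.40% of oligodendrocyte-like nuclei.

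Microglia-like nuclei had 129 CPM of Oprm1, from 232 UMIs in 88 of 543 nuclei. The libraries gave 123, 65.3, 173 and 169 CPM. Of these UMIs, 114 came from 16 nuclei with at least 5 each, whose median depth was 11410.5 UMIs, against 2342 UMIs in the 455 nuclei without an Oprm1 UMI. The microglial genes Csf1r and P2ry12 stood at 134 and 168 CPM in those 16 nuclei, against 527 and 524 CPM in the 455. The excitatory neuron gene Slc17a7 stood at 179 CPM in the 16 and 232 CPM in the 455. The mean doublet score was 0.0920 in the 16 and 0.0221 in the 455. The part of nuclei holding RNA of more than 1 cell in this level was not tested. Set against the other non-neuronal nuclei, at 9.49 CPM, Oprm1 was called higher in microglia-like nuclei by the rule of size used for all class comparisons. The log2 ratio was 3.76, and 1 of 3 members with enough UMIs was called, beside 28.8% of genes called. This comparison was added to those planned, so its call repeats the level above and is no separate support.

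Oprd1, the delta receptor, was highest in Pvalb-like interneurons, the fast-spiking basket and chandelier type. They had 134 CPM (interval 124 to 144) and a UMI in 64.8% of nuclei, and the libraries lay between 128 and 140 CPM. Sst-like nuclei had 78.3 CPM, with libraries between 69.6 and 106 CPM, below every Pvalb-like library. Vip-like nuclei had 2.59 CPM, Lamp5-like 9.54 CPM and the 28 Chodl Sst-like nuclei no UMI. Excitatory classes fell into 2 levels: L2/3 IT-like, L4/5 mid-layer-like, L6 CT-like and the unnamed cluster 10 had 19.2 to 24.3 CPM, while L5 ET-like, L5/6 NP-like and L6b-like nuclei had 2.11 to 4.78 CPM. After thinning, 19.1% of Pvalb-like nuclei had a UMI. Oligodendrocyte-like nuclei had 2.05 CPM and a UMI in 0.619% of nuclei, or 0.216% after thinning, and the 364 OPC-like nuclei (oligodendrocyte precursors) had none.

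Oprk1, the kappa receptor, was highest in 2 sets of nuclei. MSN-like nuclei had 25.6 CPM (interval 19.7 to 32.6), with 29.1, 29.3 and 7.51 CPM in libraries 1 to 3. The unnamed excitatory cluster 10, led by Slc26a4, Rxfp1, Ros1 and Ntng2, had 21.7 CPM (interval 19.3 to 24.4), with 18.9, 27.5, 24.7 and 19.0 CPM. This cluster of 1146 nuclei scored highest for markers of layer 6 intratelencephalic neurons, with claustrum next, and was left unnamed because its leading genes held more markers of another class. It held 294 of the 372 excitatory Oprk1 UMIs, 79.0%. A UMI was found in 19.5% of its nuclei, against 0.206% of oligodendrocyte-like and 0.552% of microglia-like nuclei, and after thinning in 3.07%, against 0.108% and 0%. The named excitatory classes had 0 to 1.93 CPM, and 540 Pvalb-like nuclei had no UMI (exact interval up to 0.679 CPM).

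Oprl1, the nociceptin receptor, was at low levels in all neuronal classes. Its 704 UMIs gave between 1.73 CPM in Lamp5-like and 8.44 CPM in L5/6 NP-like nuclei, and neighbouring classes in the order overlapped over libraries. OPC-like nuclei had 12.6 CPM, from 19 UMIs, with 18.8, 11.7, 3.53 and 13.98 CPM in libraries 1 to 4. The unnamed cluster 19, of 169 nuclei led by globin genes, was higher, at 28.4 CPM from 12 UMIs (interval 14.7 to 49.6). It had 0, 38.4, 48.6 and 22.4 CPM in libraries 1 to 4, a range that overlapped that of OPC-like nuclei. After thinning, 4.65% of nuclei in cluster 19 had an Oprl1 UMI. A UMI occurred in 4.95% of OPC-like nuclei, against 1.34% of oligodendrocyte-like and 2.03% of microglia-like nuclei, and after thinning these shares were 2.22%, 0.648% and 1.43%. Against the other named non-neuronal nuclei, at 4.55 CPM, Oprl1 was called higher in OPC-like nuclei at a log2 ratio of 1.46. Of 3 members with enough UMIs there, 1 was called higher and 1 lower, beside 23.7% of genes called. This comparison was added to those planned and leaves out cluster 19, so its call repeats the level above and is no separate support.

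**Figure D3:**
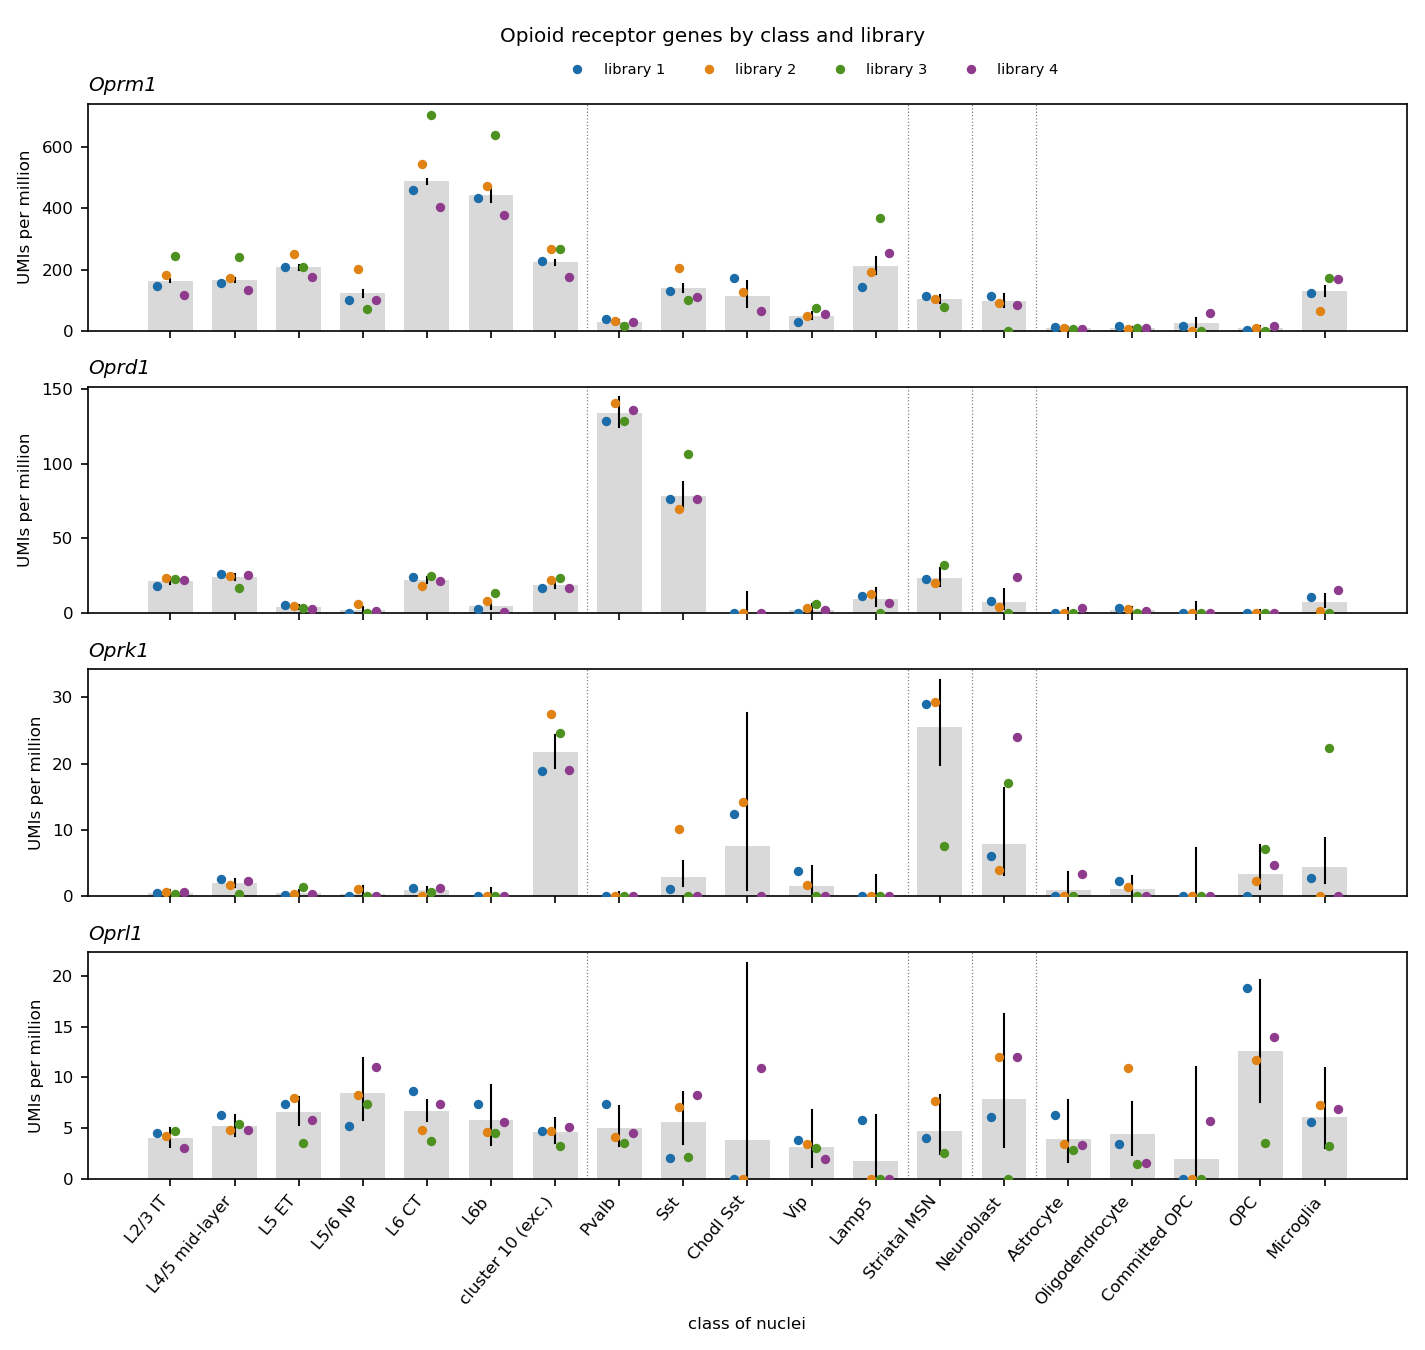
Grey bars give the pooled level of each receptor gene in CPM by class, black lines its 95% counting interval, and coloured points the 4 libraries where a library has at least 5 nuclei of the class. Oprm1 is highest in L6 CT-like (489 CPM) and L6b-like (444 CPM) nuclei, Oprd1 in Pvalb-like nuclei (134 CPM), and Oprk1 stands out in cluster 10 (21.7 CPM) and MSN-like nuclei (25.6 CPM).

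Classes were then compared by a rule of size, not a test: a gene was called when both sides together held 50 UMIs or more, their levels differed 2-fold or more, and each of the 4 libraries gave the same direction. In excitatory against inhibitory nuclei, 2 of the 7 genes were called higher and 3 lower, beside 18.4% of 17456 genes called, 9.93% higher and 8.44% lower. The receptor Oprm1 had 265, 300, 345 and 220 CPM in excitatory nuclei of libraries 1 to 4, against 78.2, 103, 73.3 and 75.8 CPM in inhibitory nuclei, a log2 ratio of 1.69 (interval 1.60 to 1.78). No excitatory library overlapped an inhibitory one. Oprd1 had 18.1, 18.5, 19.3 and 17.7 CPM in excitatory nuclei, against 77.0, 80.2, 90.1 and 86.6 CPM in inhibitory nuclei, a log2 ratio of -2.19 (interval -2.30 to -2.07). These 2 receptors thus lay on opposite sides of the comparison.

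Pnoc was the most unequal member, with 0.854 CPM in excitatory nuclei, against 11.6 CPM in inhibitory nuclei, a log2 ratio of -3.76 (interval -4.16 to -3.36). Pdyn had 2.01 CPM in excitatory nuclei, against 5.67 CPM in inhibitory nuclei, a log2 ratio of -1.50. Penk was lower in excitatory nuclei in all 4 libraries but at a log2 ratio of -0.99 did not reach the size. Oprk1 was called higher in excitatory nuclei, at 3.74 CPM against 1.28 CPM in inhibitory nuclei, a log2 ratio of 1.55. Without cluster 10 its log2 ratio was -0.49, so this call rests on that cluster. Oprl1, at 5.64 CPM in excitatory nuclei against 4.55 CPM in inhibitory nuclei, was not called.

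In cortical neurons against non-neuronal nuclei, 2 members were called higher and 2 lower, beside 40.7% of 18158 genes called, 15.2% higher and 25.5% lower. Oprm1 had 248 CPM in neurons and 34.0 CPM in non-neuronal nuclei, a log2 ratio of 2.87 (interval 2.70 to 3.04). Of the 298 non-neuronal UMIs, 232 lay in microglia-like nuclei, and without these nuclei the log2 ratio was 4.71. At a mitochondrial limit of 1% it was 0.41 and not called. Oprd1 had 25.4 CPM in neurons and 2.51 CPM in non-neuronal nuclei, a log2 ratio of 3.34 (interval 2.74 to 4.02). Penk (8.47 against 17.9 CPM, log2 ratio -1.08) and Pdyn (2.42 against 5.25 CPM, log2 ratio -1.12) were called lower in neurons. The Penk call was lost without library 1, which held 220 of the 329 MSN-like nuclei, at a log2 ratio of -0.73. The Pdyn call was lost without library 2 (-0.85) and without microglia-like nuclei (-0.63).

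**Figure D4:**
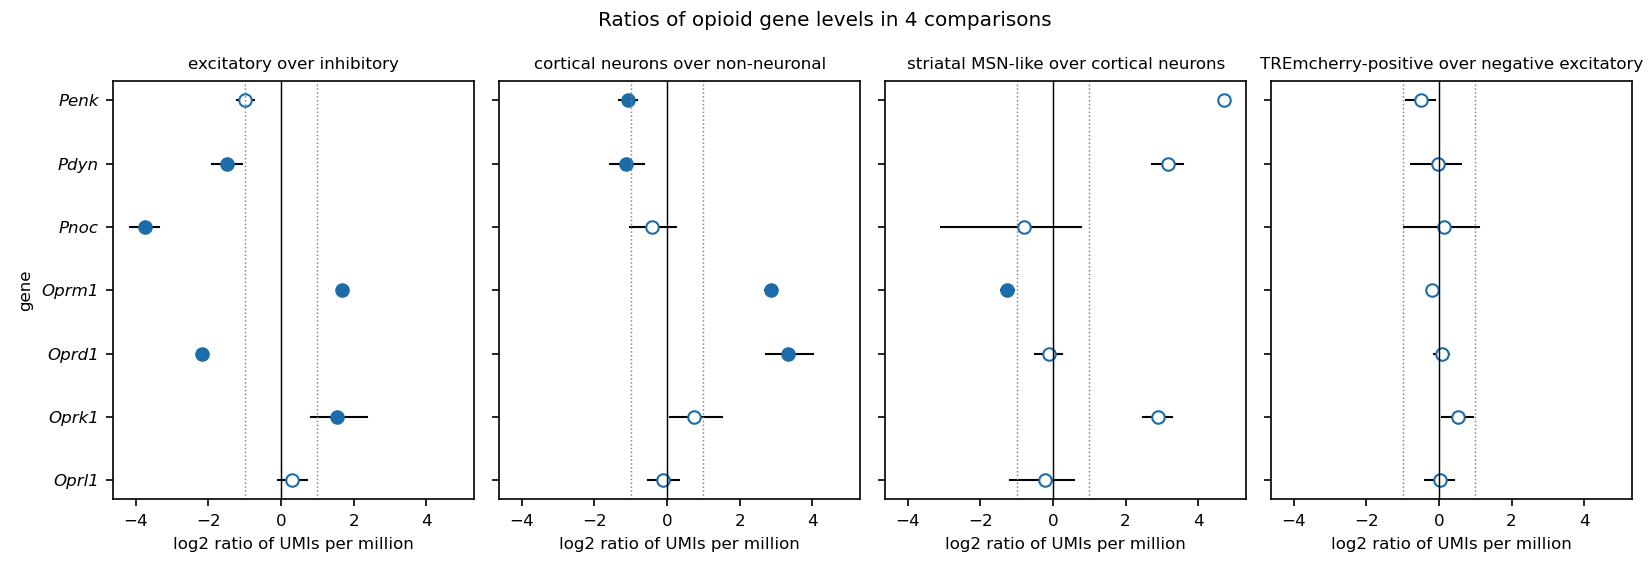
Points give the log2 ratio of CPM of each gene in 4 comparisons, with the first-named nuclei on top of the ratio, and lines the 95% counting intervals; filled points were called and open points were not, and dotted lines mark a 2-fold ratio. Excitatory over inhibitory ratios run from -3.76 for Pnoc to 1.69 for Oprm1.

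Among the 6 named excitatory subclasses, each set against the others together, 3 of 42 gene and subclass pairs were called higher and 8 lower, beside 11.5% of genes called over these comparisons, 3.49% higher and 8.03% lower. For Oprm1 the L6 CT-like subclass was called higher (489 CPM, with 186 CPM in the others, log2 ratio 1.40) and the L5/6 NP-like subclass lower (123 against 283 CPM, log2 ratio -1.21). Oprd1 was called lower in L5 ET-like nuclei (4.21 against 20.9 CPM, log2 ratio -2.31), in L5/6 NP-like nuclei (2.11 against 18.8 CPM, log2 ratio -3.16) and in L6b-like nuclei (4.78 against 18.5 CPM, log2 ratio -1.95). Penk and Pdyn were called higher in L2/3 IT-like nuclei, with Penk at 11.5 against 5.70 CPM and Pdyn at 4.11 against 1.503 CPM, log2 ratios of 1.02 and 1.45, with neither level above that of oligodendrocyte-like nuclei (23.9 and 4.44 CPM). The Penk call was lost without library 3 (0.96) or library 4 (0.85). Pdyn was called lower in the L4/5 mid-layer-like, L5/6 NP-like and L6b-like subclasses from 20, 4 and 3 UMIs. For L5/6 NP-like and L6b-like nuclei the interval of that ratio included no difference. Oprk1 was called lower in L6b-like nuclei with 0 UMIs. The exact interval of that level reaches 1.26 CPM, above the 0.939 CPM of the other subclasses, so no fold is given.

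Cluster 10 was set against the named excitatory subclasses after its Oprk1 level had been seen. There Oprk1 had 18.9, 27.5, 24.7 and 19.0 CPM in cluster 10 of libraries 1 to 4, against 1.06, 0.636, 0.520 and 1.14 CPM in the named subclasses. The log2 ratio was 4.58 (interval 4.22 to 4.96), and no other member was called, beside 7.43% of genes. Within L6 CT-like nuclei, cluster 2 had 574 CPM of Oprm1 and cluster 3 had 446 CPM, a log2 ratio of 0.36 that was not called, and no member was, beside 3.68% of genes.

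Interneuron subclasses split the opioid genes more finely. Of 35 gene and subclass pairs, 30 had enough UMIs, of which 7 were called higher and 10 lower, beside 11.2% of genes called over these comparisons, 3.19% higher and 7.97% lower. Oprd1 was called higher in Pvalb-like nuclei (134 against 43.6 CPM in the other inhibitory subclasses, log2 ratio 1.62) and lower in Vip-like (2.59 against 97.5 CPM, log2 ratio -5.23) and Lamp5-like nuclei (9.54 against 90.3 CPM, log2 ratio -3.24). It was also called lower in the 28 Chodl Sst-like nuclei, with 0 UMIs (exact interval up to 14.1 CPM) against 84.6 CPM. Oprm1 was called higher in Lamp5-like (212 against 70.6 CPM) and Sst-like nuclei (139 against 60.04 CPM) and lower in Pvalb-like nuclei (29.1 against 125 CPM, log2 ratio -2.11). The Sst-like call was lost without library 2, at a log2 ratio of 0.96.

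Among the peptide genes, Penk was called higher in Vip-like nuclei (46.6 against 9.44 CPM, log2 ratio 2.30), Pdyn in Sst-like nuclei (15.5 against 1.48 CPM, log2 ratio 3.39), and Pnoc in Lamp5-like (36.4 against 9.06 CPM, log2 ratio 2.01) and Vip-like nuclei (24.9 against 9.16 CPM, log2 ratio 1.44). All 3 peptide genes were called lower in Pvalb-like nuclei, Penk at 7.18 against 21.3 CPM, Pdyn at 1.10 against 9.17 CPM and Pnoc at 6.63 against 15.4 CPM. Only for Penk was this the lowest inhibitory subclass. Vip-like nuclei had 1.04 CPM of Pdyn, and Sst-like nuclei had 5.08 CPM of Pnoc. The other 3 lower calls were Pdyn in Vip-like and Lamp5-like nuclei, from 2 and 3 UMIs, and Pnoc in Chodl Sst-like nuclei, from 0 UMIs. The exact interval of that Pnoc level reaches 14.1 CPM, above the 11.8 CPM of the others, so no fold is given. Without library 4 the inhibitory Pdyn calls were all lost, with the Sst-like log2 ratio at 2.52, since 32 of the 71 UMIs lay in that library and the rest were under the minimum of 50.

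Inhibitory nuclei clustered on their own, without the opioid genes, gave 16 subclusters. Of the 71 inhibitory Pdyn UMIs, 51 lay in 1 subcluster of 146 nuclei, 144 of them Sst-like, led by Lama4, Unc13c and Hpse. Its level was 35.4 CPM (interval 26.3 to 46.5), with 39.0, 17.5, 24.4 and 45.2 CPM in libraries 1 to 4. The Vip-like nuclei divided for Penk: a subcluster of 109 nuclei led by Vip, Angpt1 and Grpr had 84.2 CPM (interval 65.1 to 107). Another of 88 nuclei, led by Frem1, Megf10 and Cadps2, had 11.4 CPM (interval 5.46 to 20.9). For Pnoc these subclusters had 17.9 and 37.5 CPM with overlapping intervals.

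The largest Lamp5-like subcluster, 75 nuclei led by Sv2c and Hapln1, had 48.6 CPM of Pnoc and 234 CPM of Oprm1. The 4 largest Pvalb-like subclusters had 127 to 168 CPM of Oprd1. A smaller Pvalb-like subcluster of 38 nuclei, led by Pth2r and Gpc4, had 68.2 CPM of Oprd1 (interval 41.6 to 105) and 34.1 CPM of Pnoc, from 10 UMIs. Sst-like subclusters ranged from 27.2 CPM (interval 16.6 to 42.0) to 114 CPM (interval 97.6 to 133) for Oprd1.

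MSN-like nuclei against cortical neurons gave 1 call, Oprm1 lower, beside 20.5% of 17538 genes called. Oprm1 had 112, 103 and 77.6 CPM in MSN-like nuclei of libraries 1 to 3, at 104 CPM pooled, against 248 CPM in cortical neurons, a log2 ratio of -1.26. The single nucleus of library 4 had no UMI. The cortical level pools unlike classes: L6 CT-like nuclei had 489 CPM, while inhibitory nuclei together had 83.5 CPM, below the MSN-like level. Penk (223 against 8.47 CPM, log2 ratio 4.72), Pdyn (21.6 against 2.42 CPM, log2 ratio 3.16) and Oprk1 (25.6 against 3.46 CPM, log2 ratio 2.88) were higher in 3 of 4 libraries and were not called, because the 1 MSN-like nucleus of library 4 had none of their UMIs. Without library 4 all 3 were called higher, at log2 ratios of 4.48, 3.17 and 2.85, and Oprm1 lower at -1.38, beside 23.4% of genes called.

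MSN-like nuclei are of 2 textbook kinds, direct-pathway cells with Drd1 and indirect-pathway cells with Drd2 and Adora2a. Nuclei with a Drd1 UMI alone numbered 77 and those with a Drd2 or Adora2a UMI alone 129, with none of either in library 4. The rule asks for all 4 libraries, so no gene of 4818 could be called here, 0.0% of them. Penk had 20.9, 7.75 and 0 CPM in Drd1 nuclei of libraries 1 to 3, against 443, 379 and 746 CPM in Drd2 or Adora2a nuclei. Pooled, this was 14.4 against 474 CPM, a log2 ratio of -5.04 (interval -6.17 to -4.10), and 9.09% against 79.1% of nuclei had a UMI.

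Pdyn ran the other way, at 26.1, 46.5 and 62.8 CPM in Drd1 nuclei of libraries 1 to 3, against 3.61, 6.77 and 0 CPM in Drd2 or Adora2a nuclei. The pooled log2 ratio was 3.23 (interval 1.68 to 5.22), but the 27 UMIs in all were under the minimum of 50. Oprd1 followed Penk: no UMI in 77 Drd1 nuclei (exact interval up to 5.92 CPM), against 55.9, 33.9 and 67.3 CPM in Drd2 or Adora2a nuclei. Oprm1 had 125 CPM in Drd1 and 91.8 CPM in Drd2 or Adora2a nuclei, and Oprk1 had 28.9 and 19.7 CPM, each with an interval of the ratio that included no difference. Without library 4, Penk and Oprd1 were called lower in Drd1 nuclei, beside 2.47% of genes called.

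**Figure D5:**
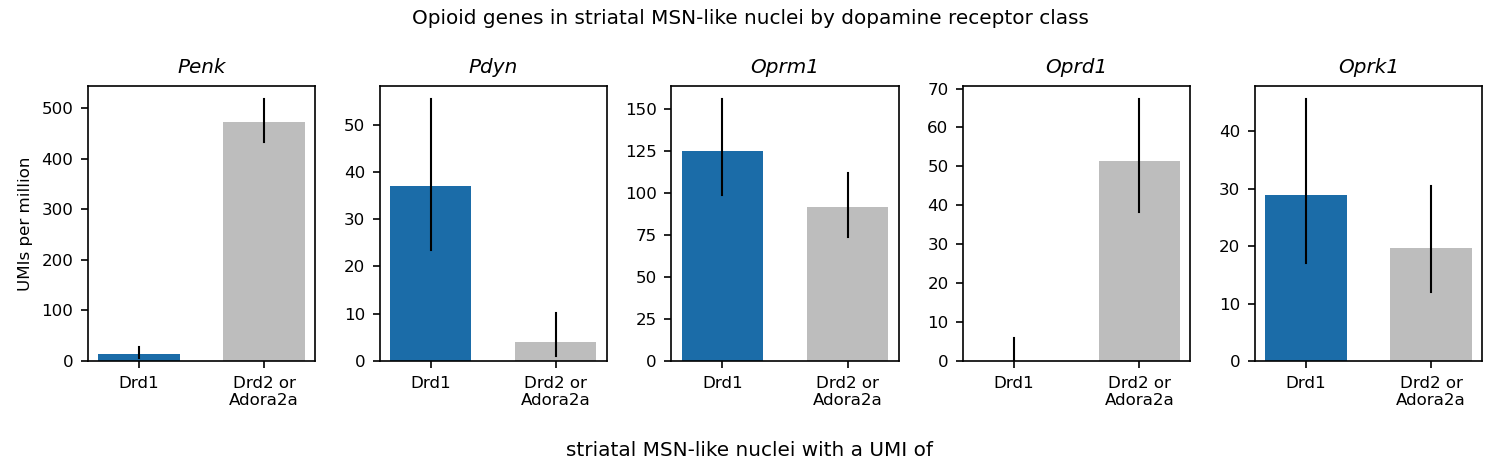
Bars give levels in CPM of 5 opioid genes in MSN-like nuclei with a Drd1 UMI alone (blue, 77 nuclei) and with a Drd2 or Adora2a UMI alone (grey, 129 nuclei), and lines the 95% counting intervals. Penk (14.4 against 474 CPM) and Oprd1 (0 against 51.3 CPM) are high in the grey bars and Pdyn (36.9 against 3.95 CPM) in the blue bars.

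Peptide and receptor were also counted in the same nuclei. Among MSN-like nuclei, an Oprd1 UMI was found in 25.4% of the 138 with a Penk UMI (interval 18.3% to 33.5%), against 3.66% of the 191 without (interval 1.49% to 7.41%), at median depths of 6712.5 and 6521 UMIs. After thinning, 3 nuclei had both, and the shares were 5% against 1.87%. In inhibitory nuclei the order was opposite: 18.1% of 149 nuclei with Penk had an Oprd1 UMI, against 42.4% of 1174 without. After thinning, 2 inhibitory nuclei had both, and the shares were 5.71% against 11.5%. Inhibitory nuclei pool classes: Vip-like nuclei had 46.6 CPM of Penk and 2.59 CPM of Oprd1, Pvalb-like nuclei 7.18 and 134 CPM. MSN-like nuclei likewise pool Drd1 nuclei with Drd2 or Adora2a nuclei. The part of this make-up in the shares was not tested. For Penk with Oprm1 the shares in excitatory nuclei were 78.6% with and 77.2% without Penk. Of 37 MSN-like nuclei with Pdyn, 21.6% had an Oprk1 UMI, against 15.1% of 292 without, with overlapping intervals. Pnoc and Oprl1 were found together in 3 excitatory and 3 inhibitory nuclei.

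The reporter TREmcherry, meant to mark cells in which the scFLARE2 tool was active, was detected in 809 excitatory nuclei and not in 7425. It was also among the leading genes of the unnamed cluster 16, which scored highest for vascular leptomeningeal and fibroblast markers. No member was called between positive and negative excitatory nuclei, beside 0.922% of genes called. Oprm1 had 240 CPM in positive and 272 CPM in negative nuclei, a log2 ratio of -0.18. Penk had 5.61 CPM in positive and 7.87 CPM in negative nuclei, a log2 ratio of -0.49, lower in all 4 libraries. Median depths were 12002 UMIs in positive and 10798 UMIs in negative nuclei. The libraries contributed 122, 278, 37 and 372 positive nuclei, against 2448, 1778, 843 and 2356 negative ones, so the sides also differ in their library make-up. Oprk1 had 5.14 CPM in positive and 3.57 CPM in negative nuclei, higher in 3 of 4 libraries. Of the 5 excitatory classes compared on their own, only L6 CT-like nuclei gave a call, beside 1.36% of genes. There Penk was lower, at 2.98 CPM in positive nuclei, from 8 UMIs, and 6.81 CPM in negative nuclei.

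A list of 52 other genes of opioid signalling and peptide handling was read beside the members. In excitatory against inhibitory nuclei, 7 of the 50 with enough UMIs were called higher and 4 lower, beside 18.4% of all genes, with a median log2 ratio of -0.07 against -0.13 over all genes. The prohormone convertase Pcsk2 (1147 against 237 CPM, log2 ratio 2.28), the G-protein regulator Rgs14 (8.60 against 2.08 CPM, log2 ratio 2.05) and the adenylyl cyclase Adcy9 (297 against 95.9 CPM, log2 ratio 1.63) had the largest ratios above 1. On the other side stood 2 peptidases, Ece2 (6.45 against 53.5 CPM, log2 ratio -3.05) and neprilysin, Mme, which degrades enkephalin (2.54 against 15.8 CPM, log2 ratio -2.64), and Rgs10 (3.95 against 12.1 CPM, log2 ratio -1.61). None of the 9 Gi/o G-protein subunits or 6 receptor kinases and arrestins was called.

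In neurons against non-neuronal nuclei 10 of 50 list genes were called higher and 10 lower, a share near the 40.7% of all genes called. All 7 calls among the effector channels and cyclases were higher, led by the potassium channel gene Kcnj6 (355 against 44.1 CPM, log2 ratio 3.01) and the calcium channel gene Cacna1b (188 against 27.1 CPM, log2 ratio 2.80). In MSN-like nuclei against cortical neurons 5 were called higher and 10 lower, beside 20.5% of all genes. All 10 lower genes had no UMI in the single nucleus of library 4, which counts as lower there. Without library 4, 7 were called higher and 11 lower, beside 23.4% of all genes. Mme had 85.4 against 4.03 CPM (log2 ratio 4.41), Rgs20 had 743 against 120 CPM (log2 ratio 2.63) and Rgs17 had 368 against 116 CPM (log2 ratio 1.66). Kcnj6 (20.5 against 355 CPM, log2 ratio -4.12), the receptor kinase gene Grk3 (6.69 against 75.3 CPM, log2 ratio -3.49) and the adenylyl cyclase gene Adcy2 (54.3 against 546 CPM, log2 ratio -3.33) had the lowest ratios.

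Likeness of pattern was measured as Pearson's correlation of log2(CPM + 1) over the 18 named classes, as a description, since classes share libraries and differ in depth. The unnamed cluster 10 is not among these classes, so the Oprk1 pattern rests on 184 of its 480 UMIs. Oprm1 was most like Mctp1 (r = 0.92), Esyt2 and Dapk1, and Oprd1 most like the cadherin gene Cdh9 (r = 0.87), Gpr61 and Cdh12. Cdh9 is also in the marker lists used to name classes. Penk was most like Smug1 (r = 0.87) and Akap9, Pdyn most like Akap5 (r = 0.78), and Pnoc most like Dlx1as (r = 0.84). The Pdyn and Pnoc patterns rest on 355 and 240 UMIs, under the 500 asked of the genes set beside them. Oprk1 was most like Smug1 (r = 0.84) and Oprl1 most like Castor2 (r = 0.79). Among the members themselves, Penk and Oprk1 had the highest value (r = 0.72), and Pnoc and Oprl1 the lowest (r = -0.54).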

How the data were processed

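Nuclei were profiled with 10x 3′ single-nucleus RNA sequencing. The authors deposited 1 matrix of UMI counts, whole numbers for each gene in each barcode. Cell Ranger 7.1.0 and build mm10 are named per the file headers and in the submitters' notes. The strand setting of the counting is not given in the sources used here. Barcodes with at least 500 genes, 800 UMIs and at most 5% mitochondrial UMIs were kept, which removed 8638 barcodes for mitochondrial UMIs, and 434 with a Scrublet doublet score above 0.2 were removed. Scanpy 1.11.5 and leidenalg 0.10.2 clustered the nuclei (2000 variable genes, 30 principal components, 15 neighbours, resolution 1.0), with the opioid and pathway genes left out. A cluster was named from 32 marker lists where at least 3 markers were at least 2-fold higher and at 10 CPM or more. UMIs were summed by class and library. Intervals are exact, at 95%, and cover counting error only. Thinning drew 1500 UMIs per nucleus and left out shallower nuclei. Levels were computed with Python 3.11.15, scipy 1.17.1 and pandas 2.3.3, and the rule of size was tested on simulated UMI sums.

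Named genes were all 7 members, at most the 3 most unequal called pathway genes in each direction and comparison, the 3 genes most like each member among those with at least 500 UMIs, and the leading genes of clusters; some genes that these rules name are not reported here. Members and lists were chosen with earlier results of these data known. Cells of 1 matrix are not replicates, so no comparison has a test.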

Additional observations from a re-analysis of the deposited data

How the results depend on the processing

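No paired analysis was possible because the matrix carries no sample or replicate number and no result comes from a test. The 38 called pairs of gene and comparison were recomputed under 21 other settings. Of 598 values for the 35 with a finite ratio, 511 kept direction and call, 83 kept direction only and 4 reversed. The reversed log2 ratios were Pdyn in L6b-like nuclei thinned to 1500 UMIs (0.035), Pnoc in Pvalb-like nuclei at a mitochondrial limit of 20% (0.26), Pdyn in Lamp5-like nuclei at resolution 0.5 (1.30) and Oprk1 in excitatory against inhibitory nuclei without cluster 10 (-0.49). The cause was not tested, except that the last rests on leaving out that cluster. Counts of called members were 5 for excitatory against inhibitory, 4 for neurons against non-neuronal, 11 over excitatory subclasses, 17 over inhibitory subclasses, 1 for MSN-like, 0 for Drd1 nuclei and 0 for TREmcherry-positive nuclei, and 11, 20 and 15 pathway genes were called in the first, second and MSN-like comparisons. A mitochondrial limit of 1% gave 1 member and 1 pathway gene for neurons, 5 for inhibitory subclasses and 2 for MSN-like, and a limit of 20% gave 6 for inhibitory subclasses and 2 for MSN-like. Keeping doublets gave 2 for neurons and 3 for MSN-like, and the automatic doublet threshold gave 3 for MSN-like. Resolution 0.5 gave 10 for inhibitory subclasses. A 1.5-fold size gave 19 and 32 pathway genes for excitatory nuclei and neurons, 17 members for excitatory subclasses and 2 for MSN-like. A mean of per-nucleus CPM and a mean over libraries each gave 2 for MSN-like. Thinning gave 2 for excitatory against inhibitory and 7 for inhibitory subclasses. Leaving out 1 library at a time gave 7 to 15 for excitatory subclasses, 5 to 6 for excitatory against inhibitory, 14 to 19 for inhibitory subclasses, 3 to 5 for neurons, 1 to 4 for MSN-like, 0 to 2 for Drd1 nuclei and 0 to 0 for TREmcherry-positive nuclei, and 11 to 11, 21 to 22 and 14 to 18 pathway genes. The cause of these moves was not tested. Cluster 10 as its own subclass, and leaving out cluster 10, L6 CT-like or microglia-like nuclei, were chosen after seeing the data. Pdyn, Pnoc and Oprk1, with 383, 262 and 480 UMIs, are limited by depth in most classes.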

Other observations

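Divided further without the opioid genes, the unnamed excitatory cluster 10 gave 10 groups of nuclei that differed in Oprk1 and Penk. This division was added after its Oprk1 level had been seen. Oprk1 ran from 3.38 CPM (interval 1.10 to 7.89) in a group of 128 nuclei led by Pld5 and Pitpnc1 to 44.2 CPM (interval 35.1 to 55.0) in a group of 144 nuclei led by Unc13c and Rxfp1. In that Unc13c group 37.5% of nuclei had an Oprk1 UMI. Penk was at 36.6 CPM (interval 28.2 to 46.6) in a group of 137 nuclei led by Ptgs2, Nptx2, Npas4, Bdnf and Fosb, genes known to be induced by neuronal activity. Libraries 1 to 4 gave 31.4, 69.8, 15.3 and 32.7 CPM of Penk there. Its 65 UMIs in this group lay in 29 nuclei, 21.2% of them, with up to 14 UMIs in a single nucleus. The other 9 groups had between 3.37 and 13.1 CPM of Penk.

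MSN-like nuclei gave 7 groups on the same footing. A group of 43 nuclei led by Nts and Rnd3, with the activity-induced genes Npas4 and Fosl2 among its leading genes, had 716 CPM of Penk (interval 631 to 809). A group of 70 nuclei led by Ankk1, Adora2a and Drd2 had 397 CPM (interval 343 to 457). Oprd1 was at 61.0 and 53.2 CPM in these groups. A group of 30 nuclei led by Alk and Pcdh15 had 211 CPM of Penk but 12.0 CPM of Oprd1, from 2 UMIs. Another, of 15 nuclei led by Sox5 and Nxph1, had 199 CPM of Penk and 41.5 CPM of Oprd1. In 3 groups with 16.6 to 29.9 CPM of Penk no Oprd1 UMI was found. One of those, 52 nuclei with Myo3b, Tac1 and Drd3 among its leading genes, had 58.3 CPM of Pdyn (interval 35.6 to 90.1) and 222 CPM of Oprm1 (interval 175 to 278).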
